A study of Mus musculus with 18 samples.

Results

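Adenylyl cyclases make cyclic AMP and protein kinase A is the kinase that cyclic AMP switches on. Of the genes for these enzymes, 10 are described here: the cyclase genes Adcy1, Adcy2, Adcy3, Adcy5, Adcy6, Adcy8 and Adcy9, the regulatory subunit genes Prkar1b and Prkar2b of the kinase, and Prkaca, a gene for its catalytic subunit. They were taken by symbol from 37980 gene rows, with no threshold on their values, and all 10 were found, with the status OK, in all 7 deposited tables. RNA sequencing was done on the nucleus accumbens, the ventral part of the mouse striatum, to learn how RGS9-2, the striatal product of Rgs9, bears on gene regulation under neuropathic pain and antidepressant treatment. The 18 samples form 6 groups of 3, and the series' design text calls the 3 of each group biological replicates. The injured groups carried a spared nerve injury, in which branches of the sciatic nerve are cut to give lasting pain. The desipramine groups, labelled Rgs9-2 knockout or Rgs9 wild type, were injured and received this tricyclic antidepressant chronically at 15 mg/kg by the intraperitoneal route, 2 times a day. The saline groups, again with either genotype label, were injured and labelled as given saline. The naive groups, also with either genotype label, have no injection in their labels, so injury and injections cannot be told apart in a comparison of saline with naive groups. All groups share a C57BL/6 background. The sources used here give neither the ages of the mice nor how the knockout allele was made, nor whether a sample pooled animals.

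In medium spiny neurons, the main cell type of this region, D1 dopamine receptors stimulate adenylyl cyclase through the G protein Golf, some adenosine receptors do the same, and D2 dopamine, mu opioid and other receptors inhibit it through Gi and Go proteins. RGS9-2 speeds the return of Gi and Go proteins to their inactive state. Cyclic AMP binds the regulatory subunits of protein kinase A and frees the catalytic subunits, which phosphorylate targets such as DARPP-32 and CREB, while phosphodiesterases break cyclic AMP down.

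Several facts of the whole series bear on these genes. Rgs9, the targeted gene, went against the labels: the authors' deposited tables give 168 FPKM in the knockout-labelled and 114 FPKM in the wild-type-labelled desipramine group (log2 fold change 0.55, q = 0.00818), 177 against 104 with saline (0.77, q = 0.0170) and 217 against 120.3 in naive mice (0.85, q = 0.0443). One value per gene does not show whether a deleted part was transcribed, so the groups are called by their labels. FPKM, a fragment count scaled to transcript length and sequencing depth, allows levels of different genes to be compared per length. The authors' deposited tables hold 1 FPKM value per gene and group, the spread between the 3 samples is not seen, and the depth of the samples is unknown. Each of the 6 groups was run on its own sequencing lane, so group and lane cannot be told apart. The wild-type-labelled naive group stood apart, with a summed level of 868 FPKM for 12 markers of cortical excitatory neurons against 320 to 435 FPKM in the other 5 groups, and the median standard error of a log2 fold change was 0.57 and 0.58 in the comparisons that use it, against 0.29 to 0.38 in the other 5. Medium spiny neuron markers were abundant in every group, with a summed level of 2686 to 4333 FPKM, Drd1a at 39.9 to 71.4 FPKM and Drd2 at 51.2 to 83.0 FPKM. Of the 16 symbols listed for them 15 were found, and the other, Drd1, is a second name of Drd1a. Choroid plexus markers summed to 436, 617 and 679 FPKM in the knockout-labelled desipramine, saline and naive groups, against 27.02, 118 and 1451 FPKM in the wild-type-labelled desipramine, saline and naive groups. Astrocyte, oligodendrocyte and microglia markers (8, 10 and 8 tested) had 0 called by Cuffdiff in all 7 tables, with 0 to 3 of a list at an unadjusted p under 0.05. In such tissue samples fewer cells of a type and less RNA per cell cannot be told apart.

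Levels below were set on a common scale with 1 factor per table, between 0.980 and 1.014, and serve to describe and order the groups. After this step the values of any of the 10 genes for 1 group in different tables lay within 0.298% of each other. The fold changes and tests stand apart from these levels and are those of the authors' deposited tables. The value after ± is a standard error, obtained by dividing the log2 fold change by the deposited test statistic, and a gene is said to have risen or fallen where q was at or below 0.05.

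Adcy5 encodes the cyclase that is most abundant in striatum and that carries D1 and adenosine receptor signals there. The authors' files place it on mm9 chromosome 16 from 35154963 to 35305823 (ENSMUSG00000022840). Its level was 138 FPKM in the knockout-labelled and 115 FPKM in the wild-type-labelled desipramine group, 134 FPKM in the knockout-labelled and 117 FPKM in the wild-type-labelled saline group, and 195 FPKM in the knockout-labelled and 108 FPKM in the wild-type-labelled naive group. The 3 knockout-labelled groups were all above the 3 wild-type-labelled groups, and the knockout-labelled naive group was the highest. The wild-type-labelled groups lay close together, between 108 and 117 FPKM. The highest level was 1.80 times the lowest.

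The promoters of Adcy5 and Adcy1, the members with the widest spread of levels, are shown because cyclic AMP acts on genes through CREB, which binds the cyclic AMP response element TGACGTCA. Each is the stretch of 250 bases before the gene start in RefSeq on the build GRCm38.p6, so its position cannot be set beside the mm9 spans. The Adcy5 stretch is chr16:35154614-35154863 on the plus strand and the Adcy1 stretch is chr11:7063183-7063432 on the plus strand. Capitals mark each GC box, searched as GGGCGG on either strand (CCGCCC on the other).
Adcy5: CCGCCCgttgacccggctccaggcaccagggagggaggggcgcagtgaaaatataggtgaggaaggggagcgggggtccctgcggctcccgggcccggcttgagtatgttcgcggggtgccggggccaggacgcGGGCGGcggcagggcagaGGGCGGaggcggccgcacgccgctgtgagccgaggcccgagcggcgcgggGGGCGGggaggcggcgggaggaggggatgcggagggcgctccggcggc
Adcy1: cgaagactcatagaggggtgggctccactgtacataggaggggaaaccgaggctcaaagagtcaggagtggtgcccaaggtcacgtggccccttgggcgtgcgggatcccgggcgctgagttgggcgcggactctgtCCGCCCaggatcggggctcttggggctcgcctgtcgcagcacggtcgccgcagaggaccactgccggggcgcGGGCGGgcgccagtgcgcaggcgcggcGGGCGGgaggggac
The Adcy5 stretch held 4 GC boxes and 78.0% G and C, and that of Adcy1 held 3 GC boxes and 71.2% G and C. Neither held the full element TGACGTCA, which reads the same on both strands, or its core TGACG, read as CGTCA on the other strand and contained in the full element. Over 32851 stretches of the same length, 32.7% held a GC box, 17.8% the core and 1.55% the full element. Promoters were listed for 8 of the 10 members, 15 in all, with more than 1 for some. The 8 all had a GC box in at least 1 of them, 3 had the core (Adcy9, Prkar1b and Prkaca) and 0 had the full element. The core was in 1 of 1 promoters of Adcy9, 1 of 5 of Prkar1b and 1 of 2 of Prkaca. Counts per gene with several promoters cannot be set beside the shares per stretch. These matches describe letters in these windows only.

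Adcy6 encodes the close relative of Adcy5, likewise inhibited by Gi and by calcium. It lies on chromosome 15 from 98420425 to 98438064 in mm9. Its level was 6.77 FPKM in the knockout-labelled and 7.75 FPKM in the wild-type-labelled desipramine group, 6.07 FPKM in the knockout-labelled and 6.58 FPKM in the wild-type-labelled saline group, and 5.79 FPKM in the knockout-labelled and 7.18 FPKM in the wild-type-labelled naive group. At each of these conditions the knockout-labelled value was the lower of the pair, the reverse of Adcy5, but none of the differences of Adcy6 passed the test.

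Adcy1 encodes a cyclase stimulated by calcium and calmodulin, which is prominent in cortex and hippocampus and is tied to synaptic plasticity and to pain in mice. It lies on chromosome 11 from 6963492 to 7078509 in mm9 (ENSMUSG00000020431). Its level was 15.8 FPKM in the knockout-labelled and 20.7 FPKM in the wild-type-labelled desipramine group, 20.8 FPKM in the knockout-labelled and 18.2 FPKM in the wild-type-labelled saline group, and 18.9 FPKM in the knockout-labelled and 33.6 FPKM in the wild-type-labelled naive group. The wild-type-labelled naive group stood alone at the top, and the other 5 groups lay between 15.8 and 20.8 FPKM with the knockout-labelled desipramine group lowest. With a highest level 2.13 times its lowest, Adcy1 varied more than any other of the 10 genes.

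Adcy8 encodes the other cyclase that calcium and calmodulin stimulate directly, and Adcy3 one that is best known from olfactory neurons and neuronal cilia. Adcy8, on chromosome 15 from 64530604 to 64753858 in mm9, was the lowest of the members at 3.27 FPKM in the knockout-labelled and 4.07 FPKM in the wild-type-labelled desipramine group, 3.36 FPKM in the knockout-labelled and 3.81 FPKM in the wild-type-labelled saline group, and 2.29 FPKM in the knockout-labelled and 3.59 FPKM in the wild-type-labelled naive group. All 3 knockout-labelled groups lay below all 3 wild-type-labelled groups. Adcy3, on chromosome 12 from 4133103 to 4236693 in mm9, ranged from 13.3 FPKM in the wild-type-labelled naive group to 18.5 FPKM in the knockout-labelled naive group, with the 4 injured groups between 15.0 and 16.7 FPKM. That span is shared with the genes Cenpo and 2410017P09Rik, at 7.07 to 8.06 and 15.4 to 18.9 FPKM, and no source used here says whether counting used the strand, so reads of Adcy3 may be mixed with theirs.

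Adcy2 encodes a cyclase that G protein beta-gamma subunits stimulate, and Adcy9 one that is little affected by forskolin, the plant compound that activates the others. Adcy2 (chromosome 13 from 68758920 to 69138419 in mm9) was between 29.2 and 29.5 FPKM in 4 groups and lower in the others, at 26.5 FPKM in the knockout-labelled desipramine group and 23.9 FPKM in the knockout-labelled naive group. Adcy9 (chromosome 16 from 4287529 to 4420498 in mm9) was between 9.12 and 9.66 FPKM in the 4 injured groups, at 11.7 FPKM in the knockout-labelled and 8.10 FPKM in the wild-type-labelled naive group. The deposited fold changes of Adcy9 against the wild-type-labelled naive group do not match its FPKM values, as given below, so its level of 8.10 FPKM is uncertain. The mm9 span of Adcy9 is shared with the predicted gene Gm6142, which was at 0.299 to 0.446 FPKM.

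Prkaca encodes the alpha catalytic subunit and was the most even of the 10 genes. It lies on chromosome 8 from 86496877 to 86520344 in mm9, and its level was 95.2 FPKM in the knockout-labelled and 99.6 FPKM in the wild-type-labelled desipramine group, 94.2 FPKM in the knockout-labelled and 99.5 FPKM in the wild-type-labelled saline group, and 89.2 FPKM in the knockout-labelled and 95.2 FPKM in the wild-type-labelled naive group. The highest level was only 1.12 times the lowest, although each knockout-labelled group was below its wild-type-labelled counterpart.

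Prkar1b encodes the type I beta regulatory subunit, which is largely neuronal, and Prkar2b the type II beta subunit, which is the main type II form of striatum. Prkar1b (chromosome 5 from 139493260 to 139662464 in mm9) was at 221 FPKM in the knockout-labelled and 244 FPKM in the wild-type-labelled desipramine group, 232 FPKM in the knockout-labelled and 236 FPKM in the wild-type-labelled saline group, and 213 FPKM in the knockout-labelled and 289 FPKM in the wild-type-labelled naive group. Prkar2b (chromosome 12 from 32643341 to 32746161 in mm9) was at 57.5 FPKM in the knockout-labelled and 52.3 FPKM in the wild-type-labelled desipramine group, 62.1 FPKM in the knockout-labelled and 55.5 FPKM in the wild-type-labelled saline group, and 67.4 FPKM in the knockout-labelled and 46.6 FPKM in the wild-type-labelled naive group. The orders were thus opposed, Prkar1b being higher in each wild-type-labelled group and Prkar2b in each knockout-labelled group. Heatr2 and Gm15672 share the mm9 span of Prkar1b, at no more than 3.59 FPKM.

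**Figure D1:**
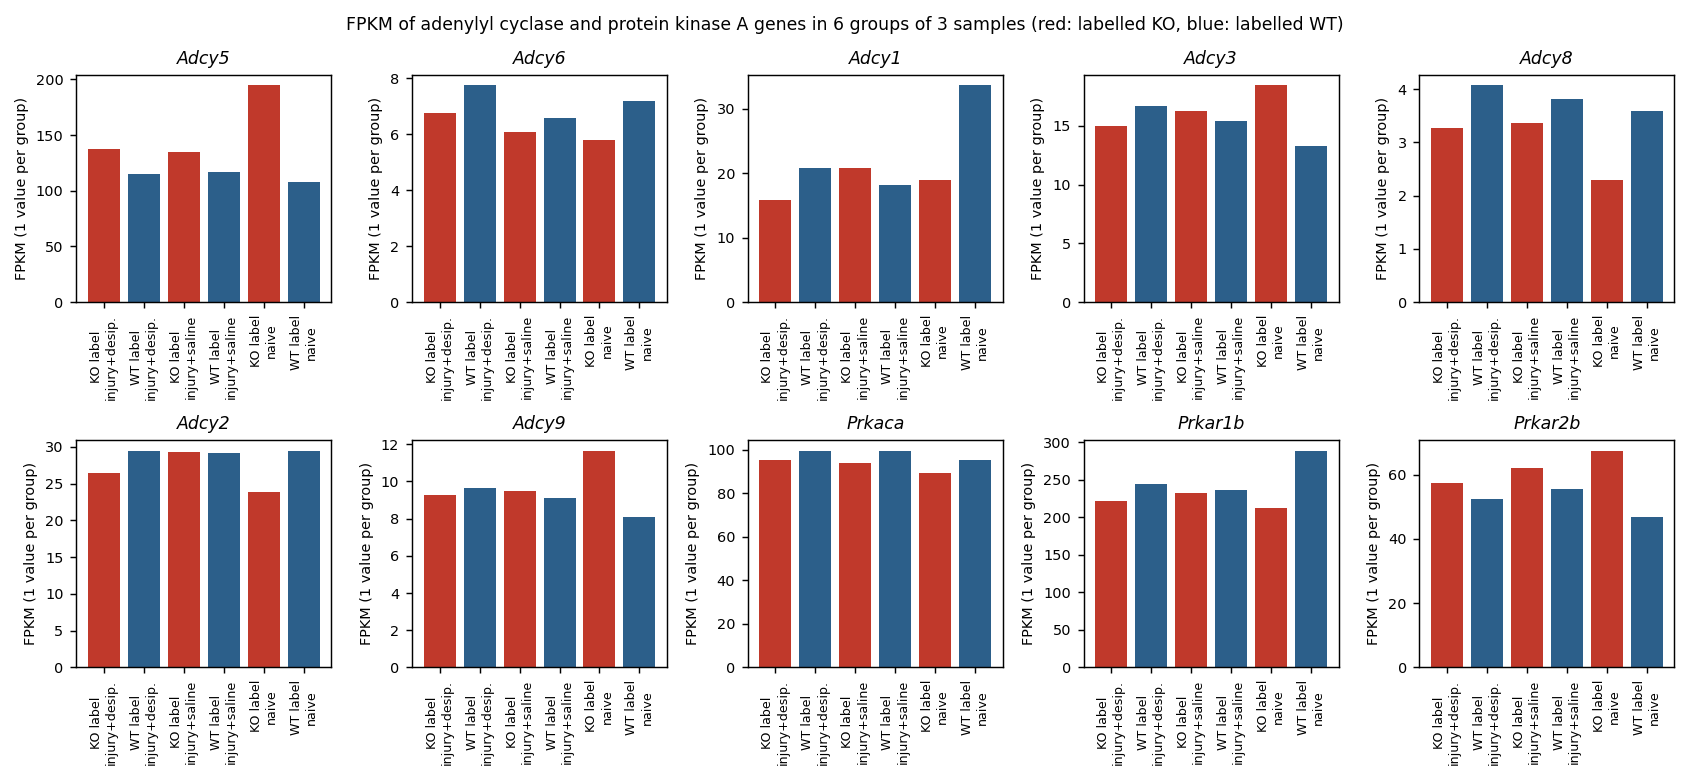
Level in FPKM (vertical axes, each from 0) of the 10 genes in the 6 groups, with 1 bar per group, the authors' single value set on a common scale, and no error bar because the files hold no value per sample. Adcy5 and Prkar2b stand higher in every knockout-labelled group (red) than in any wild-type-labelled group (blue), Adcy1 peaks at 33.6 FPKM in the wild-type-labelled naive group, and Prkaca stays between 89.2 and 99.6 FPKM.

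The genes of the same enzymes outside these 10 were Adcy4, Adcy7, Adcy10, Prkar1a, Prkar2a and Prkacb. Prkar1a, the widely expressed type I alpha subunit, was at 252 to 272 FPKM and Prkacb, the beta catalytic subunit, at 155 to 198 FPKM, both more abundant than Prkar2b and Prkaca. Prkar2a was at 13.3 to 16.6 FPKM, Adcy7 at 1.28 to 2.41 FPKM and Adcy4 at 0.899 to 1.21 FPKM. Adcy10, the soluble cyclase, reached at most 0.0587 FPKM and was not tested by Cuffdiff in any table. Of the 5 genes tested, 0 were called in each of the 7 tables, and the number with an unadjusted Cuffdiff p under 0.05 was 1 in the desipramine comparison of the labels, 1 for injury under the wild-type label and 0 in the other 5.

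Adcy5 made up more than any other gene of the FPKM summed over Adcy1 to Adcy9, in every group. Its share was 63.3% in the knockout-labelled and 55.6% in the wild-type-labelled desipramine group, 60.3% in the knockout-labelled and 57.8% in the wild-type-labelled saline group, and 69.9% in the knockout-labelled and 52.5% in the wild-type-labelled naive group. Adcy1 held 7.27% and 10.02% in the knockout-labelled and wild-type-labelled desipramine groups, 9.35% and 8.96% in the knockout-labelled and wild-type-labelled saline groups, and 6.78% and 16.4% in the knockout-labelled and wild-type-labelled naive groups. The ratio of Adcy5 to Adcy1 was 8.71 in the knockout-labelled and 5.55 in the wild-type-labelled desipramine group, 6.45 in both saline groups, and 10.3 in the knockout-labelled and 3.21 in the wild-type-labelled naive group. The genotype labels thus differed in this ratio among naive and desipramine groups and were level with saline, a description that no test covers.

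**Figure D2:**
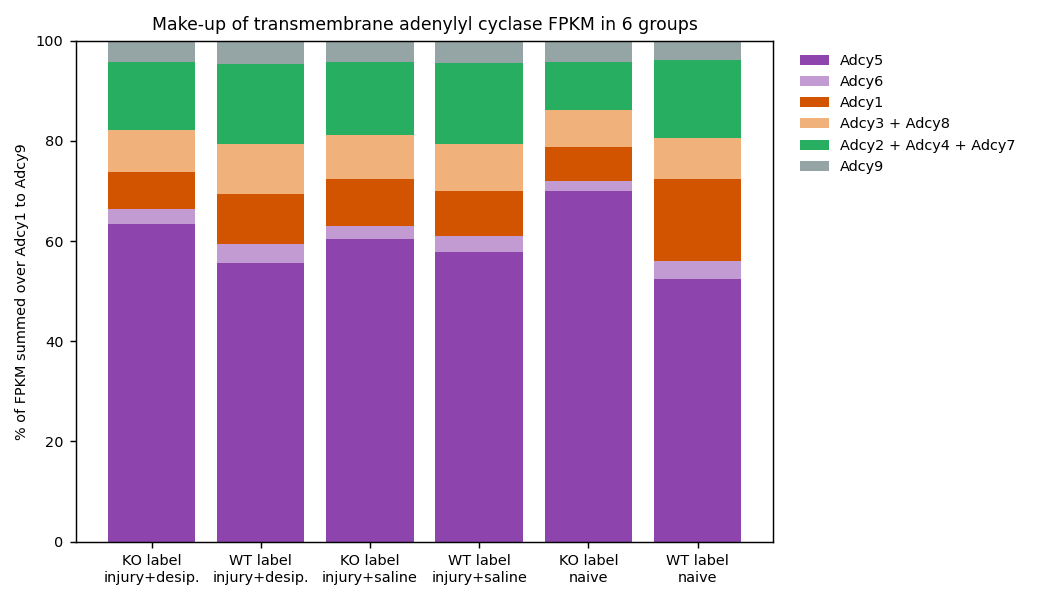
Percentage of the FPKM summed over Adcy1 to Adcy9 (vertical axis) held by each gene or set of genes, with 1 stacked bar per group. Adcy5 (dark purple) holds 52.5% to 69.9%, and the share of Adcy1 (dark orange) is largest, 16.4%, in the wild-type-labelled naive group.

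Among the kinase genes, summed FPKM of the regulatory subunits was 1.93 times that of Prkaca and Prkacb in the knockout-labelled and 2.07 times in the wild-type-labelled desipramine group, 2.06 times in the knockout-labelled and 1.98 times in the wild-type-labelled saline group, and 1.94 times in the knockout-labelled and 2.41 times in the wild-type-labelled naive group. Prkar2b held 10.2% of the regulatory sum in the knockout-labelled and 8.94% in the wild-type-labelled desipramine group, 11.0% in the knockout-labelled and 9.62% in the wild-type-labelled saline group, and 12.1% in the knockout-labelled and 7.76% in the wild-type-labelled naive group. Prkaca held 31.3% to 38.1% of the catalytic sum.

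The desipramine groups gave the only call among the 10 genes: Adcy1 fell in the knockout-labelled group. The authors' deposited table gives Adcy1 at 16.0 FPKM in the knockout-labelled and 21.0 FPKM in the wild-type-labelled desipramine group, a log2 fold change of -0.39 ± 0.19 with a Cuffdiff q of 0.0314. Of the 10 members 1 was called, and of all 17340 genes tested 0.859% were called, 0.548% as lower. The call was kept when the p of the authors was adjusted over all 7 tables (adjusted p = 0.0368) or over genes with at least 1 FPKM (adjusted p = 0.03), and lost with a normal p from the deposited test statistic (-2.07), whose adjusted p was 0.99992. In the same authors' deposited table, cortical excitatory neuron markers fell in 4 of 12 cases and none rose, among them the vesicular glutamate transporter gene Slc17a7 at 41.5 FPKM with the knockout label and 88.3 FPKM with the wild-type label (log2 fold change -1.09, q = 0.00818). The marker sums were 342 FPKM in the knockout-labelled and 435 FPKM in the wild-type-labelled desipramine group, and none of the markers was at 0. Choroid plexus markers moved further, 7 of 10 rising and none falling, with a median log2 fold change of 2.60 and all 10 at an unadjusted p under 0.05. The interneuron markers Pvalb and Vip fell (2 of 9), as did Avp and Slc17a6 among 11 septal, pallidal and hypothalamic neuron markers. Of 15 medium spiny neuron markers Rgs9 alone rose by the test. All 15 were above 0, with a median log2 fold change of 0.22 and 8 at an unadjusted p under 0.05. The part of these markers in the Adcy1 result was not tested.

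The other 9 members did not pass in that comparison. The authors' deposited table gives Adcy8 at 3.31 FPKM in the knockout-labelled and 4.12 FPKM in the wild-type-labelled group (log2 fold change -0.32 ± 0.23, q = 0.496) and Adcy5 at 139 against 116 FPKM (0.26 ± 0.23, q = 0.891). These 2 and Adcy1 had an unadjusted p under 0.05, against 5.58% of all genes. The median log2 fold change of the 10 members was -0.15, with 2 of 10 above 0, beside -0.01 for all genes tested.

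Among naive mice the members showed their widest differences between the labels, yet 0 of 10 were called by Cuffdiff, against 1.44% of the 17358 genes tested. The authors' deposited table gives Adcy5 at 191 FPKM in the knockout-labelled and 106 FPKM in the wild-type-labelled naive group, a log2 fold change of 0.85 ± 0.47 with q = 0.0957. Adcy1 was at 18.5 FPKM in the knockout-labelled and 32.9 FPKM in the wild-type-labelled naive group in the authors' deposited table (-0.83 ± 0.49, q = 0.147). Prkar2b was at 66.1 against 45.6 FPKM (0.54 ± 0.40, q = 0.381) and Adcy8 at 2.25 against 3.52 FPKM (-0.65 ± 0.47, q = 0.349), knockout label against wild-type label, in the authors' deposited table. These 4 genes had an unadjusted p under 0.05, which 9.5% of all tested genes had, and they were split between both directions. Prkar1b, at 209 FPKM with the knockout label against 283 FPKM with the wild-type label in the authors' deposited table (-0.44 ± 0.44, q = 0.701), was not among them. The members had a median of -0.20, with 4 of 10 above 0, beside -0.03 for all tested genes.

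The markers moved alongside these values in naive mice. Of 12 cortical excitatory neuron markers 8 fell and none rose, and their sums were 417 FPKM in the knockout-labelled and 868 FPKM in the wild-type-labelled naive group. Of 15 medium spiny neuron markers 4 rose (Pde10a, Rasd2, Drd1a and Rgs9) and none fell, with sums of 4333 FPKM in the knockout-labelled and 3604 FPKM in the wild-type-labelled naive group. Of these 15, 14 were above 0, with a median log2 fold change of 0.68, and 9 had an unadjusted p under 0.05, all of them higher. Of 9 interneuron markers 4 fell and 1 rose, with sums of 621 FPKM in the knockout-labelled and 1225 FPKM in the wild-type-labelled naive group. Of 10 septal, pallidal and hypothalamic neuron markers Irs4 alone rose by the test and none fell, with 5 at an unadjusted p under 0.05, 3 higher and 2 lower. Of 10 choroid plexus markers 0 were called by Cuffdiff, with 2 at an unadjusted p under 0.05. The part of these markers in the values of Adcy1 and Adcy5 was not tested.

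**Figure D3:**
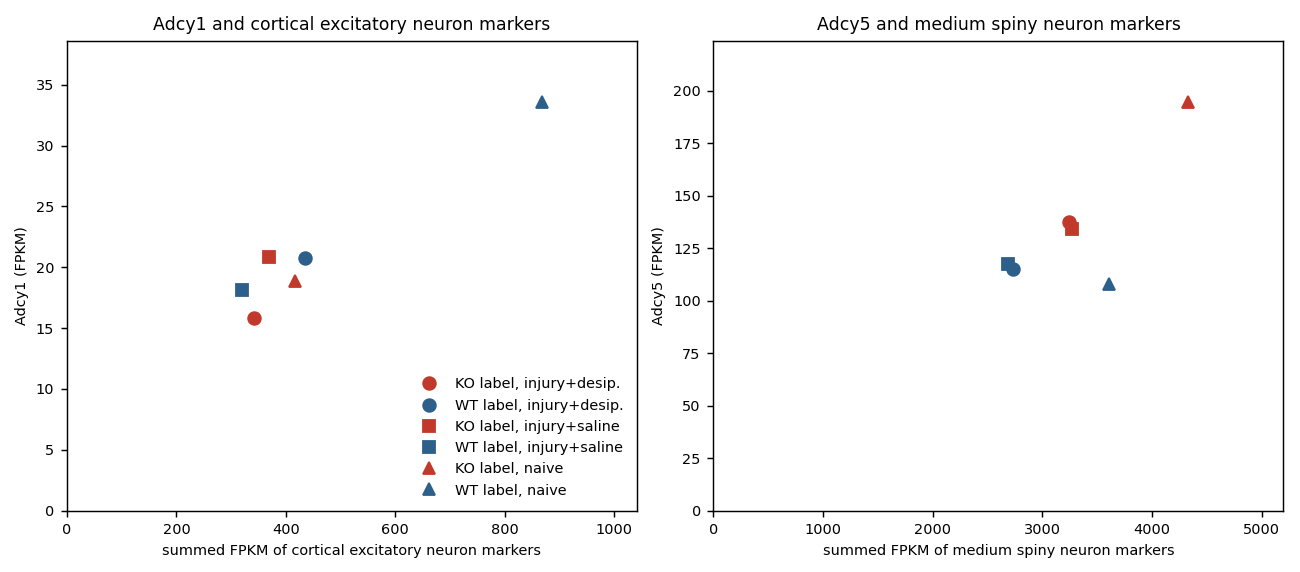
Left, level of Adcy1 against the summed level of 12 cortical excitatory neuron markers, and right, level of Adcy5 against the summed level of 15 medium spiny neuron markers, all in FPKM, with 1 point per group (red, knockout label; blue, wild-type label). The wild-type-labelled naive group lies apart at 33.6 FPKM of Adcy1 and 868 FPKM of cortical markers. Its mean log2 of FPKM + 1 over these markers, 4.17, was also the highest. The sums do not always keep the order of this mean. The knockout-labelled naive group was at 417 FPKM and a mean of 2.85, and the knockout-labelled saline group at 368 FPKM and 3.18. The knockout-labelled naive group has the highest Adcy5 and the highest medium spiny neuron marker sum. The wild-type-labelled naive group has the next highest medium spiny neuron marker sum, 3604 FPKM, and the lowest Adcy5, 108 FPKM. Abundant genes weigh most in such a sum, and Ppp1r1b alone was at 1031 FPKM in that group. The mean log2 of FPKM + 1 over the 15 markers was 6.68 there. It was 7.26, 6.82 and 6.80 in the knockout-labelled naive, saline and desipramine groups, and 6.58 in both other wild-type-labelled groups.

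With saline after injury no member separated the genotype labels by the test. Of the 10 members 0 were called by Cuffdiff, against 0.329% of 17304 genes tested, and 0 had an unadjusted p under 0.05, against 2.9% of all. Adcy5 was at 135 FPKM in the knockout-labelled and 118 FPKM in the wild-type-labelled saline group in the authors' deposited table (log2 fold change 0.19 ± 0.32), and Adcy1 at 20.9 against 18.3 FPKM (0.20 ± 0.29). Adcy2 was level, at 29.4 FPKM in both (0.00 ± 0.23) in the authors' deposited table. The members had a median of 0.03, with 5 of 10 above 0, beside 0.00 for all genes. Markers moved here too: choroid plexus markers rose in 6 of 10 cases, and septal, pallidal and hypothalamic neuron markers fell in 4 of 10 (Calb2, Gal, Irs4 and Oxt). Rgs9 was the 1 of 15 medium spiny neuron markers that rose by the test. Of these 15, 14 were above 0 and 3 had an unadjusted p under 0.05. Of 12 cortical excitatory neuron markers 0 were called by Cuffdiff, with 4 at an unadjusted p under 0.05 and all 12 above 0.

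**Figure D4:**
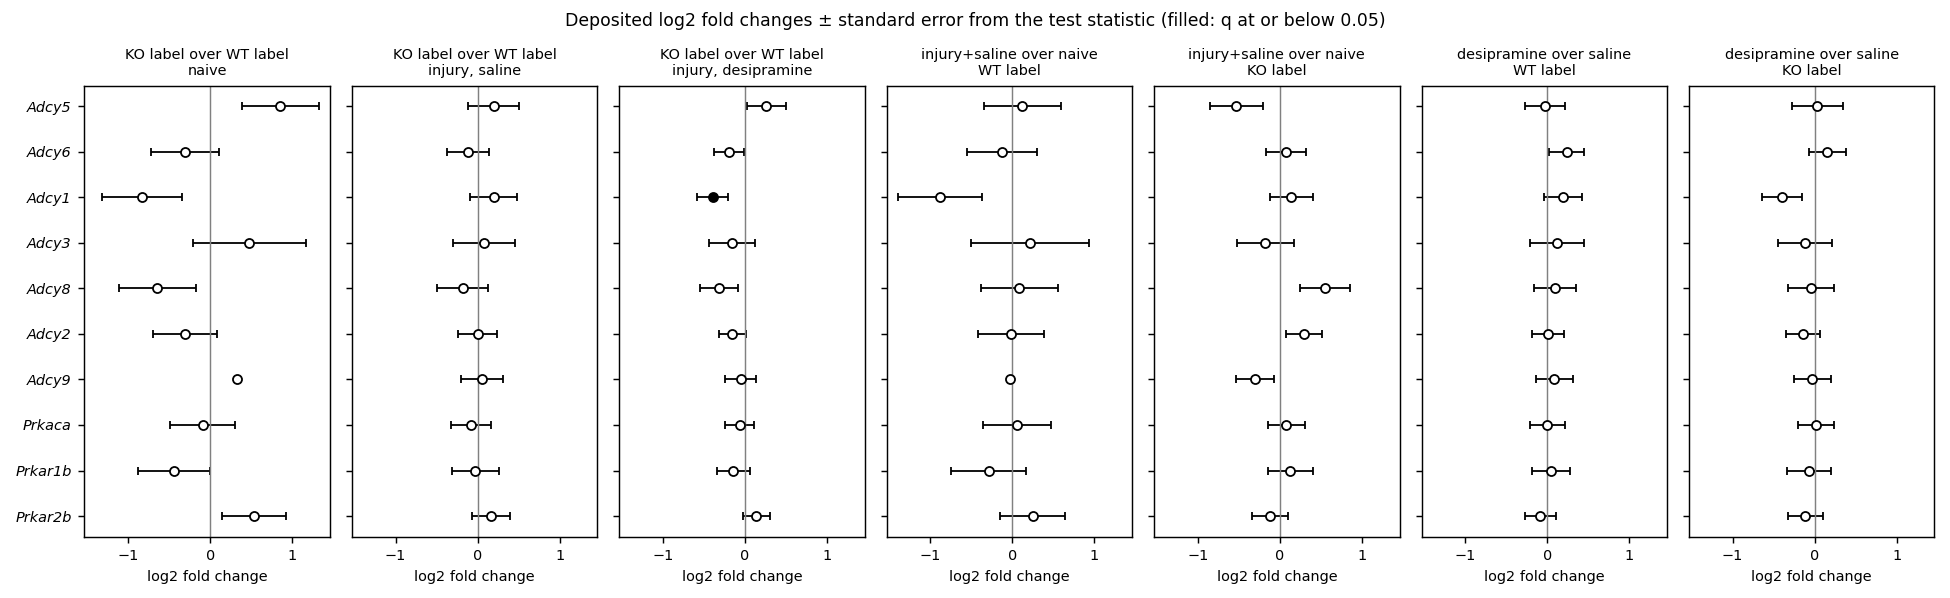
Deposited log2 fold change (horizontal axes) of the 10 genes in the 7 comparisons, with bars of 1 recovered standard error to each side and a filled point where q was at or below 0.05. The only filled point is Adcy1 in the desipramine groups (-0.39), and bars are widest in both comparisons with the wild-type-labelled naive group; Adcy9 has no bar there because its deposited fold change and FPKM values differ.

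Injury with saline, set against naive mice, gave no call among the 10 genes under either label. Under the knockout label 0 of 10 were called by Cuffdiff, against 0.459% of 17203 genes, and 4 had an unadjusted p under 0.05, against 4.41% of all. The authors' deposited table gives Adcy5 at 133 FPKM in the saline group and 192 FPKM in the naive group (log2 fold change -0.53 ± 0.32, q = 0.343) and Adcy9 at 9.38 against 11.5 FPKM (-0.30 ± 0.23, q = 0.873). In the other direction it gives, in the same authors' deposited table, Adcy8 at 3.33 FPKM in the saline group and 2.27 FPKM in the naive group (0.55 ± 0.31, q = 0.202) and Adcy2 at 28.9 against 23.6 FPKM (0.29 ± 0.22, q = 0.819). Medium spiny neuron markers moved beside them, with 4 of 15 falling (Adora2a, Drd2, Rasd2 and Gpr6) and none rising. Of the 15, 0 were above 0 and 12 had an unadjusted p under 0.05. Their sums were 3271 FPKM in the knockout-labelled saline group and 4333 FPKM in the knockout-labelled naive group. Of 10 septal, pallidal and hypothalamic neuron markers Gal, Irs4 and Oxt fell and Slc17a6 rose. Pvalb rose among 9 interneuron markers and Fezf2 among 12 cortical excitatory neuron markers. Of these 12, 11 were above 0, with a median log2 fold change of 0.50, and 8 had an unadjusted p under 0.05, 7 of them higher and 1 lower. The part of these markers was not tested.

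Under the wild-type label 0 of 10 were called by Cuffdiff after injury, against 1.42% of 17464 genes, and 1 had an unadjusted p under 0.05, against 8.94% of all. That gene was Adcy1, at 18.1 FPKM in the saline group and 33.4 FPKM in the naive group of the authors' deposited table (log2 fold change -0.89 ± 0.51, q = 0.120). Cortical excitatory neuron markers fell in 10 of 12 cases and none rose, with sums of 320 FPKM in the saline and 868 FPKM in the naive group. Nrgn made up most of both sums, at 232 FPKM in the saline and 533 FPKM in the naive group of the authors' deposited table. Of 10 choroid plexus markers 8 fell as well. Of 9 interneuron markers 3 fell and 1 rose, and of 10 septal, pallidal and hypothalamic neuron markers Irs4 alone rose by the test. Of these 10, 9 were above 0, with a median log2 fold change of 0.91, and 6 had an unadjusted p under 0.05, all of them higher. The part of these markers was not tested. Adcy5 was at 117 FPKM in the saline and 107 FPKM in the naive group of the authors' deposited table (0.12 ± 0.47). For Adcy9 the fold change of the authors' deposited table, -0.03, is not the log2 ratio of its FPKM values, 9.07 and 8.06 in the saline and naive groups, which is 0.17. The same mismatch, 0.32 against 0.53, was present for Adcy9 between the naive groups, so it has no standard error in these tables.

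The injury responses under the knockout label and the wild-type label were also set against each other. Adcy1 had the largest difference, a knockout-label response minus wild-type-label response of 1.03 ± 0.57 on the log2 scale, built from responses of 0.14 and -0.89. The difference for Adcy5 was -0.65 ± 0.57, from -0.53 under the knockout label and 0.12 under the wild-type label. Of the 9 members with a standard error 0 passed, with a normal approximation and adjustment over 13633 genes, and 0 had an unadjusted p under 0.05, against 0.132% and 1.62% of all genes. With standard errors derived from the deposited p, a choice made after seeing the data, Adcy1 and Adcy5 had an unadjusted p under 0.05, as did 6.48% of all genes. Still 0 of 9 passed, against 0.667% of all genes, Adcy1 having the lowest adjusted p, 0.151.

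Desipramine, set against saline in injured mice, gave no call among the 10 genes. Under the knockout label 0 of 10 were called by Cuffdiff, against 1.05% of 17304 genes, and only Adcy1 had an unadjusted p under 0.05, against 4.37% of all. The authors' deposited table gives Adcy1 at 15.9 FPKM in the desipramine and 20.9 FPKM in the saline group (log2 fold change -0.40 ± 0.25, q = 0.212). The rest lay between -0.15 (Adcy2) and 0.16 (Adcy6) in the authors' deposited table. Cortical excitatory neuron markers fell in 3 of 12 cases (Slc17a7, Neurod2 and Emx1) and none rose, with sums of 342 FPKM in the desipramine and 368 FPKM in the saline group. Septal, pallidal and hypothalamic neuron markers rose in 6 of 10 cases (Avp, Calb2, Gal, Irs4, Oxt and Trpc4) and all 10 were above 0, with sums of 138 FPKM in the desipramine and 77.7 FPKM in the saline group. Pvalb was the 1 of 9 interneuron markers that fell. The part of these markers was not tested.

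Under the wild-type label 0 of 10 members were called by Cuffdiff with desipramine and 0 had an unadjusted p under 0.05, against 0.202% and 1.79% of 17316 genes. The authors' deposited table gives Adcy1 at 21.0 FPKM in the desipramine and 18.4 FPKM in the saline group (log2 fold change 0.19 ± 0.23) and Adcy6 at 7.86 against 6.68 FPKM (0.24 ± 0.22), and the log2 fold changes of the other 8 lay between -0.08 (Prkar2b) and 0.12 (Adcy3). Slc17a7 rose here, at 88.5 FPKM in the desipramine and 51.5 FPKM in the saline group of the authors' deposited table (0.78, q = 0.0495). It was the 1 of 12 cortical excitatory neuron markers called, with all 12 above 0 and 7 at an unadjusted p under 0.05. Avp and Oxt rose among 11 septal, pallidal and hypothalamic neuron markers and Kcne2 fell among 9 choroid plexus markers. The part of these markers was not tested. Between the labels, the desipramine responses of Adcy1 differed by -0.59 ± 0.34 on the log2 scale, from -0.40 under the knockout label and 0.19 under the wild-type label. Of the 10 members 0 passed this difference after adjustment over 13827 genes and 0 had an unadjusted p under 0.05, against 0.145% and 0.861% of all genes. With standard errors from the deposited p Adcy1 had an unadjusted p under 0.05, as did 3.19% of all genes, and an adjusted p of 0.212, where 0.318% of all genes passed.

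Genes on either side of the cyclases and the kinase were called mainly between the naive groups and for injury under the knockout label. Of those called, Drd1a, Adora2a, Gpr6, Drd2 and Pde10a are also in the medium spiny neuron list, so these calls were already counted above. In that list 14 of 15 were above 0 between the naive groups and 0 of 15 for injury under the knockout label. The part of that list in the pathway calls was not tested. Of 17 genes tested for the stimulatory G protein and its receptors, Drd1a, the D1 dopamine receptor, rose in the knockout-labelled naive group, at 70.0 FPKM against 39.04 FPKM in the wild-type-labelled naive group in the authors' deposited table (log2 fold change 0.84 ± 0.38, q = 0.0421). That is 1 of 17 against 1.44% of all genes, and the call was lost at q of 0.01 or less, with p adjusted over all 7 tables and with a normal p. Adora2a, an adenosine receptor coupled to Golf (-0.54 ± 0.22, q = 0.0128), and the orphan receptor gene Gpr6 (-0.60 ± 0.20, q = 0.0239) fell with injury under the knockout label in the authors' deposited table, 2 of 17 against 0.459% of all genes. Htr4, a serotonin receptor coupled to Gs, fell with desipramine under the knockout label in the authors' deposited table, at 1.496 against 2.57 FPKM with saline (-0.78 ± 0.30, q = 0.0133), 1 of 17 against 1.05% of all genes. The other 4 comparisons called 0 of these 17 by Cuffdiff, with 0 to 3 at an unadjusted p under 0.05.

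Of 20 tested genes for inhibitory G proteins and their receptors, Drd2 fell (log2 fold change -0.55 ± 0.24) and the serotonin receptor gene Htr1a rose (0.92 ± 0.27) with injury under the knockout label in the authors' deposited table, each with q = 0.0128, 2 of 20 against 0.459% of all genes. The other 6 comparisons called 0 of the 20 by Cuffdiff, with 1 to 7 at an unadjusted p under 0.05. Of 16 cyclic AMP phosphodiesterase genes, 3 rose in the knockout-labelled naive group of the authors' deposited table: Pde10a, the abundant striatal form (1.23 ± 0.52), Pde1c (1.097 ± 0.46) and Pde7b (0.90 ± 0.41). Of all genes tested there 1.44% were called, 0.334% as higher. The 16 had a median log2 fold change of 0.39 there, with 13 above 0, beside -0.03 for all tested genes. The other 6 comparisons called 0 of them by Cuffdiff, with 0 to 4 at an unadjusted p under 0.05.

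Of 19 kinase substrates and CREB factors, Stmn1, which encodes the microtubule regulator stathmin, was the only one called. The authors' deposited tables give Stmn1 at 142 FPKM in the knockout-labelled and 393 FPKM in the wild-type-labelled naive group (log2 fold change -1.47 ± 0.45, q = 0.00761), and at 189 FPKM in the wild-type-labelled saline and 400 FPKM in the wild-type-labelled naive group (-1.08 ± 0.47, q = 0.0130). Both comparisons share the wild-type-labelled naive group, and 1.44% and 1.42% of all genes were called in them. Kinase inhibitors and anchoring proteins (16 or 17 tested) and other proteins that bind cyclic AMP (10 tested) had 0 called by Cuffdiff in all 7 tables, with 0 to 2 and 0 to 1 at an unadjusted p under 0.05.

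Over the 6 group levels, likeness to 3 of the members was described by the Pearson correlation of log2 levels with 11768 other genes, whose points share tables and lanes. Among the genes most like Adcy5 were D3Bwg0562e (r = 0.997), Tbc1d8 (0.996), Rasd2 (0.995) and Zfp827 (0.995), and 3.10% of the genes had an r of at least 0.9. For Adcy1 they were Zc3hc1, Clstn1, Sh3glb2, Irgq and Inmt (r of 0.994 to 0.997), with 11.2% at 0.9 or more. For Prkaca they were Bri3bp (0.993), Nell1 (0.992), Gjd2 (0.991), Shd (0.984) and Disp2 (0.982), with 1.33% at 0.9 or more. Rasd2, a striatal small GTPase also in the medium spiny neuron list, was at 114 FPKM in the knockout-labelled and 93.9 FPKM in the wild-type-labelled desipramine group, 109 against 96.1 FPKM with saline and 164 against 82.4 FPKM in naive mice, knockout label against wild-type label. Of the 45 pairs of members 8 had an r beyond 0.9 in either direction, each over 6 groups that share tables and lanes. Those that ran together were Adcy8 with Prkaca (r = 0.952), Adcy3 with Adcy9 (0.951), Adcy2 with Adcy8 (0.926), Adcy1 with Prkar1b (0.906) and Adcy5 with Adcy9 (0.901). Both r values with Adcy9 use its FPKM in the wild-type-labelled naive group, which its deposited fold changes do not match. Those that ran opposite were Adcy5 to Adcy8 (r = -0.951), Adcy5 to Adcy2 (-0.933) and Prkar1b to Prkar2b (-0.908).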

How the data were processed

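RNA of 18 nucleus accumbens samples was sequenced, and the samples were grouped by the titles and characteristics of the labels. Bowtie2 2.1.0, TopHat2 2.0.9 and Cuffdiff 2.1.1 were used with the builds mm9 and NCBIM37, per the submitters' processing notes. No source used here gives the annotation release or the strand setting. There are 7 deposited tables, each for 1 pair of groups. FPKM was normalized by the authors inside each table, which has, per the file headers, a single value for a gene in either group. The deposited log2 fold changes set a table's second group over its first, and those printed have the same orientation. The deposited test statistic is a score with the sign of the fold change for nearly all genes. The p-value and q-value are those the authors deposited from Cuffdiff.

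A member was matched by its symbol, and of rows with the same symbol the one with status OK and the highest summed FPKM was used. Calls needed the status OK and q at or below 0.05, with q adjusted over all genes tested in that table. Standard errors were the fold change over the test statistic, except where the fold change and the FPKM ratio differed by over 0.01 or the normal p of the statistic was under 0.0001 beside a deposited p over 0.05, where none is given. To compare responses, their difference was divided by its standard error, combined from those of both fold changes. The p from a normal approximation was adjusted by Benjamini-Hochberg over genes with at least 1 FPKM in every group. This step was tested on simulated data drawn with the same standard errors that it used. Whether those standard errors are right was therefore not tested. Levels of a group were averaged over its tables after 1 factor per table. Depth is unknown, so no counting interval is given. Alternatives were q at or below 0.01, p adjusted over all 7 tables, a normal p from the test statistic, a filter of 1 FPKM in either group, a pseudocount of 1, centred fold changes and plain means of levels. Genes named beside the members were Rgs9, up to 4 called genes of each pathway list, up to 3 called genes of each marker list and the 5 genes most like Adcy5, Adcy1 and Prkaca, of which 1 is not reported here; some further called marker genes are named after their values were seen. The members and lists were chosen with earlier results of these data known. Python 3.11.15, numpy 2.4.6, pandas 2.3.3, scipy 1.17.1 and matplotlib 3.10.9 were used.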

Additional observations from a re-analysis of the deposited data

How the results depend on the processing

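No paired analysis was possible because the tables hold 1 value per gene and group, and for the same reason no replicate could be left out; neither was run. The single call among the members, Adcy1 in the knockout-labelled against the wild-type-labelled desipramine group, was the only count of called members that moved: 0 members were called there at q of 0.01 or less, and 0 when a normal p was taken from the statistic, against 1. The other 6 comparisons had 0 called members under all 4 alternatives, and both differences between responses had 0 under their 3 alternatives. For these 6 comparisons the q limit of 0.01 could only give 0, since a member above the main limit cannot pass it. No gene at all could pass it between the saline groups, for injury under the knockout label or for desipramine under the wild-type label. The lowest q there was 0.017, 0.0128 and 0.0279, in that order, at the lowest deposited p of 5e-05. Of 70 member fold changes, centring on the median of all genes turned the sign of Adcy2 and Adcy9 for injury under the wild-type label (0.0237 and 0.00528) and of Prkaca for desipramine under the wild-type label (-0.000926), and the log2 ratio of FPKM + 1 turned that of Adcy9 for injury under the wild-type label (0.15). Centring also turned the Prkaca difference between injury responses (-0.0209). None of these was a called value. A normal p moved 26 and the stricter q 18 of 105 counts of called list genes. Some of these 18 counts belong to tables where no gene could pass the stricter q. With a normal p no gene of the pathway lists was called. At q of 0.01 or less the pathway lists kept only Pde10a, Pde1c and Stmn1, all between the naive groups. Their other calls were lost, which for injury under the knockout label was fixed beforehand. Drd1a was also lost with p adjusted over all 7 tables. Among all genes of the naive comparison 250 were called by Cuffdiff, 114 at q of 0.01 or less and 77 with a normal p. Standard errors from the deposited p were an alternative chosen after seeing the data. All 60 levels stayed the same within the spread between tables with plain means. With no value per sample, the spread between animals behind any level cannot be given.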
